A study of Homo sapiens with 6 samples.

Results

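The 9 genes described here are components, regulators and a soluble recognition partner of the complement system, out of 27830 genes in the deposited table. They were chosen by name from the complement and pentraxin families with the TGF-β1 and control counts of these same 6 libraries already known, so the differences between the groups are given as a description, with no p-value, and support nothing further. All 9 names had exactly 1 row each. C3, C1R, C1S and CFB encode components of the cascade, CD46, CD55, CD59 and SERPING1 encode regulators, and PTX3 encodes a pentraxin.

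The cells were LX-2, an established immortalised line of human hepatic stellate cells, the pericyte-like cells that make scar matrix in the injured liver. In the TGF-β1 group, 3 samples received 10 ng/ml of transforming growth factor beta 1, the main profibrotic cytokine of the liver, for 24 h in medium without serum. In the control group, 3 samples received no TGF-β1. Cells were grown in serum-containing medium beforehand, and the labels do not name the medium of the controls during the treatment, so the cytokine and a difference in serum cannot be told apart in any difference below. Both groups are the same line with no genetic change stated, and the labels do not say that samples of a group came from separate cultures, so the spread between them may be technical.

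Complement is a chain of plasma and tissue proteins that tags surfaces for removal and can perforate membranes. The classical pathway starts when C1q binds a target and its partner proteases C1r and C1s are activated, the alternative pathway runs through factor B, and all routes meet at the cleavage of C3. Host cells limit the cascade with the membrane proteins CD46, CD55 and CD59 and with the plasma inhibitor of C1r and C1s encoded by SERPING1. Most complement proteins in blood come from hepatocytes, while fibroblasts and other mesenchymal cells make some of them locally. PTX3, a long pentraxin, is made at sites of inflammation rather than in the liver parenchyma, binds C1q and is known to be induced by interleukin 1 and tumour necrosis factor.

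Promoter windows of 250 bases that end at the base before the RefSeq transcription start, on GRCh38.p14, were available for 6 of the 9 genes. The sequences of PTX3 and C1R are shown because these genes were lower in every TGF-β1 library than in every control library, and that of CD46 because it was the gene whose mean was higher in TGF-β1 cells. They are written from 5′ to 3′ on the strand of the gene, and capitals mark matches to the motifs named below. PTX3 lies on the plus strand (chr3:157436600-157436849), C1R on the minus strand (chr12:7092446-7092695) and CD46 on the plus strand (chr1:207751804-207752053).
PTX3: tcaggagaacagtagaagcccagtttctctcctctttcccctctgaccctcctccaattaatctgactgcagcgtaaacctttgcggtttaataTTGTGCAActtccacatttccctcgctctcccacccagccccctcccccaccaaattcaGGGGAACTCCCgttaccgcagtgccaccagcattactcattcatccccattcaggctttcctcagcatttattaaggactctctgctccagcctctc
C1R: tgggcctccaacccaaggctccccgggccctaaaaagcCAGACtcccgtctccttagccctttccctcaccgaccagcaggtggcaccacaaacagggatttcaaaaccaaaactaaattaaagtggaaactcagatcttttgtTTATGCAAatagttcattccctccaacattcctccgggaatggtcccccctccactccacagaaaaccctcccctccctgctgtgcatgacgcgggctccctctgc
CD46: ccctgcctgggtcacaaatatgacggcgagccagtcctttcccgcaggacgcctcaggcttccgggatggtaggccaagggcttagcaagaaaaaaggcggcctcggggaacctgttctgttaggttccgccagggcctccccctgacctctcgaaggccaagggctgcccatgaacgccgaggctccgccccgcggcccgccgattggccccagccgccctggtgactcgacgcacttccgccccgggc

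The motifs searched, on both strands, were AP-1 (TGANTCA), a SMAD element (GTCTG), C/EBP (TTGCNNAA), a GAS element for STAT factors (TTCNNNGAA) and NF-kB by its consensus. The PTX3 window held a C/EBP match, read on the opposite strand, whose first base lies at position -156 from the start, and NF-kB matches at -97 and -96 that overlap and share the same run of bases. The C1R window held a SMAD match at -212 and a C/EBP match at -106, both read on the opposite strand. None of the 5 motifs was found in the CD46 window. Of the windows not printed, CFB held a GAS match at -92, CD59 a GAS match at -128 and CD55 a SMAD match at -52, and AP-1 was found in none of the 6. Among the windows of 27305 genes, NF-kB had a match in 5.05%, AP-1 in 6.60%, GAS in 6.78%, C/EBP in 9.13% and SMAD in 37.8%. A match is a run of letters and not a measured site.

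Levels are CPM, read counts relative to library sizes scaled by the TMM method, and log2 differences are TGF-β1 minus control with their standard error (SE) from edgeR's quasi-likelihood fit to all 14463 genes that passed its filter on low counts. Library totals ran from 13866957 to 17694675 counts, so that 3 counts, used as the floor of detection, were worth 0.170 to 0.216 CPM, a limit that covers counting error only. A gene is termed called where its Benjamini-Hochberg adjusted p over these genes was under 0.05. In that comparison 53 genes, 0.366% of those tested, were called, and 26, or 0.18%, were called lower in TGF-β1 cells. Of the 9 genes 8 passed the filter, CFB did not, and 2 of the 8, C3 and PTX3, were called, both lower. Because these genes were chosen with the same contrast known, nothing is read from that share.

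The cytokine's known target FN1, which encodes fibronectin, had 3558 ± 184 CPM in TGF-β1 cells and 985 ± 68.9 CPM in control cells (SD, n = 3 each), 3.61-fold higher (edgeR adjusted p = 5.11e-05). ACTA2, which encodes the smooth muscle actin used as a marker of stellate cell activation, had 4.77 ± 1.35 CPM in TGF-β1 cells and 5.002 ± 0.338 CPM in control cells (edgeR adjusted p = 0.898). Of 14 stellate cell markers all had a row, and their summed level, on total counts, ran from 3237 to 3783 CPM in TGF-β1 libraries and from 2941 to 3015 CPM in control libraries (two-sided exact permutation p = 0.1, the smallest that 3 against 3 samples allow). The largest terms went opposite ways. COL1A1 had 1770 ± 155 CPM in TGF-β1 cells and 1331 ± 99.7 CPM in control cells (edgeR adjusted p = 0.159). VIM had 1227 ± 117 CPM in TGF-β1 cells and 1418 ± 47.8 CPM in control cells (edgeR adjusted p = 0.423). TAGLN, COL3A1 and COL1A2 also lay higher in every TGF-β1 library, while PDGFRB, HAND2 and ACTA2 overlapped between the groups. TAGLN had 304 ± 53.2 CPM in TGF-β1 cells and 97.7 ± 4.13 CPM in control cells (edgeR adjusted p = 0.000682). COL3A1 had 156 ± 6.29 CPM in TGF-β1 cells and 95.1 ± 8.43 CPM in control cells (edgeR adjusted p = 0.035). Both were called, and COL1A2 was not (edgeR adjusted p = 0.487). DES, LRAT and DCN, markers of stellate cells and fibroblasts, had at most 6 counts in any library. PDGFRA and LUM had at most 14 counts in any library. RGS5 had at most 13 counts in any library in its protein-coding row, and at most 7 in a second row of that name. COL1A2 was also low, with 2.89 ± 0.249 CPM in TGF-β1 cells and 2.22 ± 0.297 CPM in control cells. The label of a stellate cell therefore rests mostly on VIM, COL1A1, COL3A1, TAGLN, PDGFRB and HAND2.

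**Figure D1:**
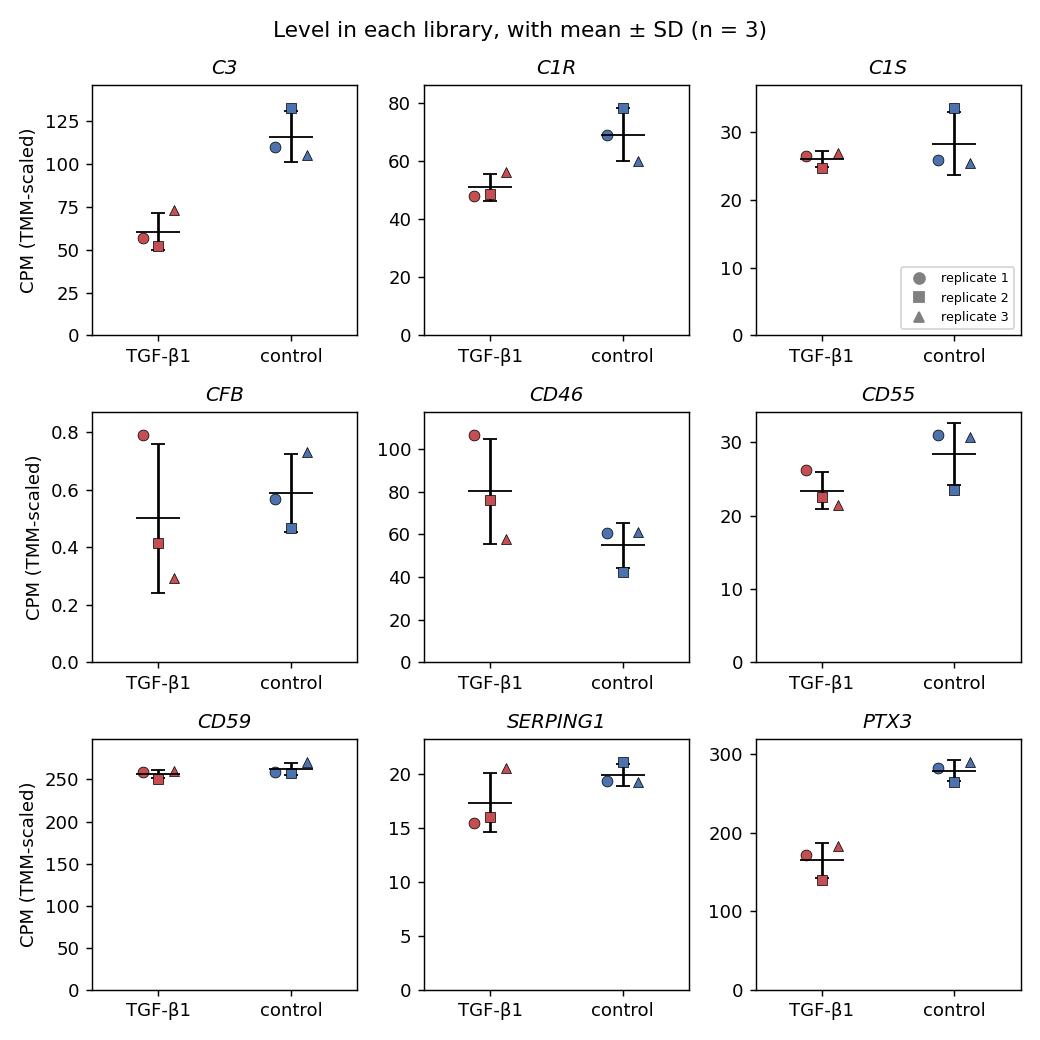
CPM on TMM-scaled library sizes (vertical axis, linear from 0, a different scale in each panel) of the 9 genes in the 3 TGF-β1 libraries (red) and the 3 control libraries (blue), with replicate numbers as symbols and mean ± SD as black bars. C3, C1R and PTX3 had every TGF-β1 library below every control library, while the groups of the other 6 genes overlapped.

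C3, which encodes the protein on which all complement pathways converge, had a lower RNA level in TGF-β1 cells. It had 56.8, 52.2 and 73.0 CPM in TGF-β1 replicates 1 to 3, against 109.8, 133 and 105.3 CPM in control replicates 1 to 3. The highest TGF-β1 library lay below the lowest control library. Means were 60.7 ± 10.9 CPM in TGF-β1 cells and 116 ± 14.9 CPM in control cells (SD, n = 3 each), a log2 difference of -0.94 ± 0.16 (SE), or 1.91-fold lower. These values rest on 880 to 992 counts per TGF-β1 library and 1553 to 2282 per control library. Among the 14463 tested genes ordered by log2 difference from the lowest, C3 stood at place 104. The gene lies on chromosome 19 at 6677704 to 6730562 on the minus strand (GRCh38, GENCODE 29), and it shares no exon base with another annotated gene.

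The C3 call depended on single libraries. It was lost without TGF-β1 replicate 2 (log2 difference -0.84), or without any 1 of control replicates 1, 2 and 3 (-0.98, -0.85 and -1.01), and was kept without TGF-β1 replicate 1 (-0.90) and without TGF-β1 replicate 3 (-1.09). Leaving out a library also leaves fewer samples for the test. With the dependence of each library on GC content removed, a setting described with CD46, the log2 difference was -0.84 ± 0.10, and C3 was then called with any single library left out.

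C1R and C1S encode the paired serine proteases of the C1 complex, where C1r activates C1s and C1s cleaves the next components. C1R had 47.9, 48.7 and 56.5 CPM in TGF-β1 replicates 1 to 3, against 69.0, 78.5 and 60.2 CPM in control replicates 1 to 3. The groups did not overlap, though the highest TGF-β1 library and the lowest control library stood close. Means were 51.0 ± 4.75 CPM in TGF-β1 cells and 69.2 ± 9.15 CPM in control cells, a log2 difference of -0.44 ± 0.15 (SE). C1R was not called, except without TGF-β1 replicate 3, where the log2 difference was -0.52, or -0.38 with the GC trend removed as well. The gene lies on chromosome 12 at 7080199 to 7092607 on the minus strand, and C1RL on the same strand shares 11.4% of its exon bases, where the counting could split or drop reads.

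C1S, its neighbour on chromosome 12 (6988259 to 7071032, plus strand), had 26.5, 24.7 and 27.0 CPM in TGF-β1 replicates 1 to 3, against 25.9, 33.6 and 25.4 CPM in control replicates 1 to 3. Control replicate 2 stood above the other libraries, which lay within a narrow band in both groups. Means were 26.1 ± 1.20 CPM in TGF-β1 cells and 28.3 ± 4.61 CPM in control cells, and the 95% interval of the log2 difference ran from -0.48 to 0.24. Per length, in FPKM, C1R exceeded C1S 2.01, 2.19 and 2.33 times in the TGF-β1 libraries, against 2.97, 2.60 and 2.64 times in the control libraries. The transcripts of the pair were thus less unequal in every TGF-β1 library, with a mean ratio of 2.18 ± 0.160 in TGF-β1 cells and 2.74 ± 0.203 in control cells (SD, n = 3 each). In TGF-β1 libraries this ratio ran opposite to the levels of GC-poor genes, given with CD46, and in control libraries in the same order. With the GC trend removed the log2 difference was -0.35 ± 0.09 for C1R and -0.14 ± 0.14 for C1S (SE).

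CFB encodes factor B, the protease of the alternative pathway convertase, and was close to the limit of detection. It had 13, 7 and 4 counts in TGF-β1 replicates 1 to 3, against 8, 8 and 12 counts in control replicates 1 to 3, or 0.4996 ± 0.258 CPM in TGF-β1 cells and 0.588 ± 0.134 CPM in control cells. No difference was detectable at this depth. Of its exon bases 45.5% are shared with C2 and another annotated gene on the same strand of chromosome 6 (31945650 to 31952084), so even these counts are uncertain. C2 itself, the classical counterpart of factor B, did not pass the filter. Summed per length, C3, C1R, C1S and CFB gave 19.6, 19.1 and 22.3 FPKM in TGF-β1 replicates 1 to 3, against 29.3, 33.8 and 27.3 FPKM in control replicates 1 to 3. Every TGF-β1 library lay below every control library in this sum, as they did for its largest terms C3 and C1R.

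The regulators did not show a common direction. CD46, the membrane cofactor with which factor I inactivates deposited C3b and C4b, had 106.6, 76.2 and 58.0 CPM in TGF-β1 replicates 1 to 3, against 60.7, 42.5 and 61.3 CPM in control replicates 1 to 3. TGF-β1 replicates 1 and 2 stood above all controls, and TGF-β1 replicate 3 lay among them. Means were 80.3 ± 24.6 CPM in TGF-β1 cells and 54.8 ± 10.7 CPM in control cells, with coefficients of variation of 30.6% in TGF-β1 cells and 19.5% in control cells, and the log2 difference was 0.55 ± 0.22 (SE). CD46 was not called, except without TGF-β1 replicate 3 (log2 difference 0.74) and with no filter on low counts (0.54). The gene lies on chromosome 1 at 207752057 to 207795513 on the plus strand.

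Among the 9 genes CD46 has the lowest transcript GC content, 37.7%, against 57.2% for SERPING1 at the other end. How levels depended on GC content was not the same in every library. Over the 234 genes whose transcripts hold at most 35% GC, the median log2 deviation from the gene mean was 0.69, 0.24 and -0.18 in TGF-β1 replicates 1 to 3, against -0.09, -0.42 and -0.15 in control replicates 1 to 3. Within the TGF-β1 group CD46 followed the same order, and within the control group replicate 2 was lowest in both. With that dependence removed from each library by a smooth curve, the CD46 log2 difference was 0.11 ± 0.09, and 474 genes, or 3.28% of those tested, were called.

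CD55, which speeds the decay of the convertases, lies on chromosome 1 as CD46 does (207321376 to 207386804, plus strand). It had 26.2, 22.6 and 21.5 CPM in TGF-β1 replicates 1 to 3, against 31.0, 23.5 and 30.7 CPM in control replicates 1 to 3. Control replicate 2 lay within the TGF-β1 range, so the groups overlapped. The log2 difference was -0.28 ± 0.17 (SE) and was not called. With the GC trend removed it was -0.53 ± 0.11, and CD55 joined C3 and PTX3 as the 3 of the 8 genes called under that setting. That call was kept without TGF-β1 replicate 3 (-0.61) and lost without any other single library (-0.58 to -0.47). Per length, CD46 exceeded CD55 2.68, 2.23 and 1.78 times in TGF-β1 libraries, against 1.29, 1.19 and 1.32 times in control libraries. This ratio did not overlap between the groups, and in TGF-β1 libraries it ran in the same order as the levels of GC-poor genes.

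**Figure D2:**
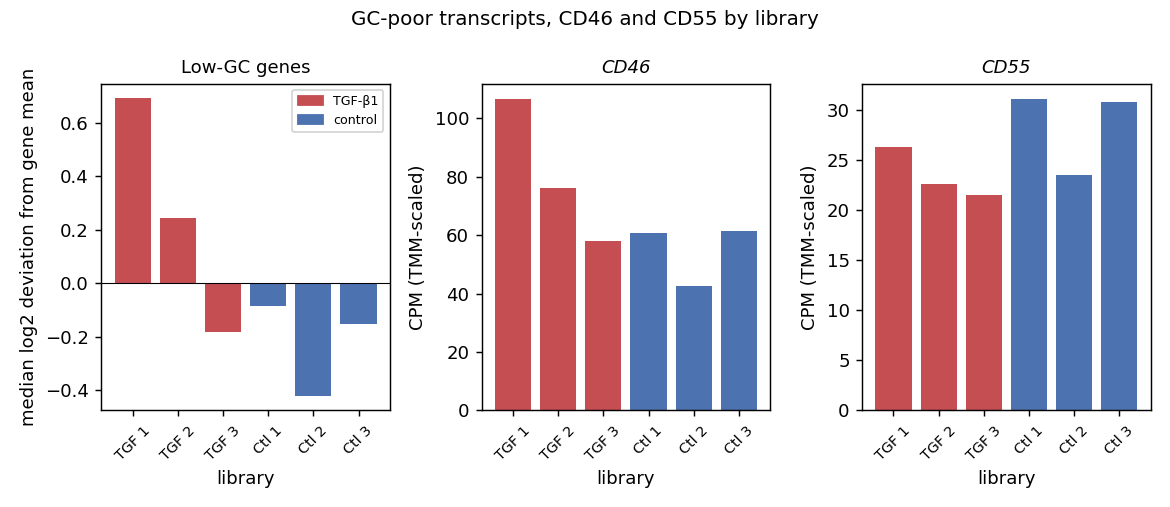
Left, the median log2 deviation from the gene mean over the 234 genes whose transcripts hold at most 35% GC; middle and right, the CPM of CD46 and CD55, for TGF-β1 replicates 1 to 3 (red) and control replicates 1 to 3 (blue). CD46 and the GC-poor genes were highest in TGF-β1 replicate 1 and lowest in control replicate 2.

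CD59, which encodes a membrane protein that stops assembly of the membrane attack complex, had the steadiest RNA level of the 9. It had 259, 251 and 260.5 CPM in TGF-β1 replicates 1 to 3, against 259, 258 and 271 CPM in control replicates 1 to 3. The coefficient of variation was 1.996% in TGF-β1 cells and 2.68% in control cells, and the groups overlapped. The log2 difference was -0.03 ± 0.11 (SE), with a 95% interval from -0.28 to 0.21, and -0.12 with the GC trend removed. CD59 lies on chromosome 11 at 33703010 to 33736491 on the minus strand, and another annotated gene on that strand shares 6.07% of its exon bases.

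SERPING1, which encodes the C1 inhibitor and so opposes the products of C1R and C1S, lies on the same chromosome (57597387 to 57614853, plus strand). It had 15.5, 16.0 and 20.5 CPM in TGF-β1 replicates 1 to 3, against 19.3, 21.1 and 19.3 CPM in control replicates 1 to 3. TGF-β1 replicate 3 lay within the control range. The log2 difference was -0.20 ± 0.17 (SE), with a 95% interval from -0.58 to 0.18. The membrane regulators CD46, CD55 and CD59 together gave 37.8 ± 3.72 FPKM in TGF-β1 cells and 35.9 ± 3.06 FPKM in control cells, and CD59 made up 65.0% ± 5.52 of that sum in TGF-β1 cells and 69.0% ± 3.61 in control cells (SD, n = 3 each). Both quantities overlapped between the groups.

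PTX3, which encodes the long pentraxin, had a lower RNA level in TGF-β1 cells. It had 171, 140.2 and 182 CPM in TGF-β1 replicates 1 to 3, against 282, 264 and 289.8 CPM in control replicates 1 to 3. The groups were well apart, with the lowest control library far above the highest TGF-β1 library. Means were 165 ± 21.8 CPM in TGF-β1 cells and 279 ± 13.4 CPM in control cells (SD, n = 3 each), a log2 difference of -0.76 ± 0.13 (SE), or 1.69-fold lower. The gene has a single annotated transcript on chromosome 3 (157436789 to 157443628, plus strand), and 3.66% of its exon bases lie opposite VEPH1, which reads without strand cannot separate.

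The PTX3 call was lost without TGF-β1 replicate 2 (log2 difference -0.66) and without either of control replicates 1 and 3 (-0.75 and -0.74), and kept without each of the other 3 libraries (-0.84 to -0.79). With the GC trend removed the log2 difference was -0.79 ± 0.10, and PTX3 was then called with any single library left out. PTX3 stood at place 198 of the 14463 genes from the lowest log2 difference. Per length it exceeded C3 12.03 ± 1.14 times in TGF-β1 cells and 10.7 ± 1.77 times in control cells, ranges that overlapped.

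**Figure D3:**
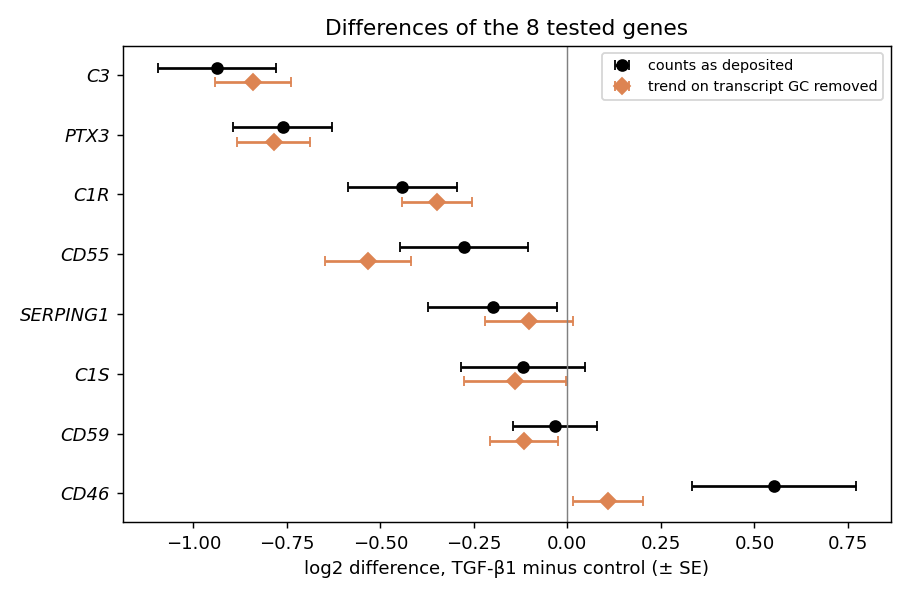
Log2 difference in level, TGF-β1 minus control, with its SE, of the 8 genes that passed the filter, from counts as deposited (black circles) and with the trend on transcript GC content removed (orange diamonds). C3 and PTX3 lay lowest under both settings, and with the trend removed CD46 stood at 0.11 and CD55 at -0.53.

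Across the 8 tested genes 7 had a log2 difference below 0 and the median was -0.24, while 7083 of all 14463 tested genes lay below 0 with a median of 0.01. In C3, C1R and PTX3 the groups did not overlap, against 2466 tested genes, or 17.1%, in which they did not overlap in either direction. In bulk samples of this kind, fewer cells that express a gene and less RNA per cell cannot be told apart.

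Ordered by level per length (FPKM), the 9 genes spanned a wide range. PTX3 stood first, with 87.6 ± 9.98 FPKM in TGF-β1 cells and 147 ± 9.79 FPKM in control cells, above 98.0% of tested genes. CD59 followed with 24.4 ± 0.309 FPKM in TGF-β1 cells and 24.7 ± 1.03 FPKM in control cells. In TGF-β1 cells CD46 (9.29 FPKM), C1R (8.83) and C3 (7.33) came next, and neighbours in that order overlapped between libraries. In control cells C3 (13.8 FPKM) and C1R (11.8) overlapped each other and lay above CD46 (6.26), which overlapped CD55. CD55 (4.10 FPKM in TGF-β1 cells and 4.91 FPKM in control cells) and C1S (4.06 FPKM in TGF-β1 cells and 4.34 FPKM in control cells) could not be ordered in either group. SERPING1, at 2.41 FPKM in TGF-β1 cells and 2.73 FPKM in control cells, lay below both, and CFB was last at 0.107 FPKM in TGF-β1 cells and 0.124 FPKM in control cells.

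C3 thus stood at place 5 of the 9 in TGF-β1 cells and place 3 in control cells. PTX3 made up 59.0% ± 2.48 of the FPKM of all 9 in TGF-β1 cells and 68.1% ± 1.60 in control cells, with no overlap between the groups. The place of SERPING1 depends on its length. The FPKM values imply 7231 bases, against 3603 exon bases in GENCODE 29, and on the latter length it had 4.83 ± 0.663 FPKM in TGF-β1 cells and 5.47 ± 0.179 FPKM in control cells, above the means of C1S and CD55.

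**Figure D4:**
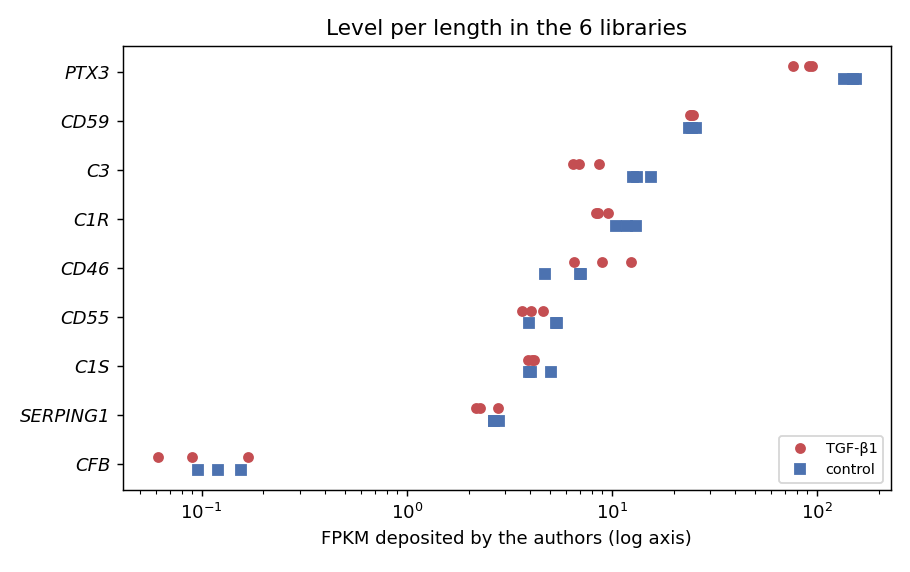
FPKM (log axis) of the 9 genes in each of the 3 TGF-β1 libraries (red) and 3 control libraries (blue), ordered by mean level. PTX3 lay far above the rest, CFB lay near 0.1 FPKM, and C3 and PTX3 showed a clear gap between the groups.

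Most other genes of the system had too few counts to be tested. Of 59 further complement and pentraxin genes listed, 40 had a row and 14 passed the filter, and none was called in the edgeR fit described above. At an unadjusted p under 0.05, 3 of the 14 lay lower, VTN, ITGAX and ITGB2, and none higher, while 15.6% of all tested genes were under that threshold and 4.49% were under it and lower. Of the 14, 10 had a log2 difference below 0, with a median of -0.34. VTN and ITGB2 were low, with 6 to 34 and 1 to 31 counts per library. DESeq2 called none of these 14. In alternative fits edgeR called VTN and ITGB2 with no filter on low counts, and VTN without TGF-β1 replicate 1. It called CLU, given below, without TGF-β1 replicate 3, with and without the GC trend removed.

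C1QBP, a mitochondrial and surface protein that binds C1q, had 229 ± 32.2 CPM in TGF-β1 cells and 245 ± 10.9 CPM in control cells (edgeR adjusted p = 0.752). C1RL, a C1r-like protease, had 27.9 ± 1.04 CPM in TGF-β1 cells and 28.4 ± 2.04 CPM in control cells (edgeR adjusted p = 0.943). C4A and C4B, which encode the substrates of C1s, had at most 15 counts in any library, and reads cannot be assigned with certainty between these near-identical genes. CFD, the protease that activates factor B, had 2 to 15 counts and did not pass the filter, nor did CFP, which encodes properdin.

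Of the terminal components C5 had 1.65 ± 0.640 CPM in TGF-β1 cells and 1.09 ± 0.399 CPM in control cells (edgeR adjusted p = 0.472), and C8G did not pass the filter. CLU, or clusterin, a soluble inhibitor of the terminal complex, had 232 ± 38.6 CPM in TGF-β1 cells and 285 ± 15.7 CPM in control cells, a log2 difference of -0.30 ± 0.14 (SE; edgeR adjusted p = 0.326). THBD, a surface regulator of coagulation and complement, had 2.41 ± 0.276 CPM in TGF-β1 cells and 3.33 ± 0.446 CPM in control cells (edgeR adjusted p = 0.381). Among receptors, the integrin chain gene ITGAX had 9.65 ± 1.07 CPM in TGF-β1 cells and 13.01 ± 1.15 CPM in control cells (edgeR adjusted p = 0.273). C3AR1, the receptor for the C3a fragment, had 3.11 ± 0.0989 CPM in TGF-β1 cells and 2.53 ± 0.128 CPM in control cells (edgeR adjusted p = 0.566). Of the other pentraxins only NPTXR, a neuronal pentraxin receptor, passed the filter, with 47.5 ± 5.97 CPM in TGF-β1 cells and 47.3 ± 6.22 CPM in control cells (edgeR adjusted p = 0.993), and PTX4 had at most 2 counts.

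Acute-phase genes and the cytokines, receptors and transcription factors known to induce them were listed too. Of 28 listed, 27 had a row and 24 passed the filter, and edgeR called none, with 6 at an unadjusted p under 0.05 (15.6% of all tested genes were), 3 higher and 3 lower, and a median log2 difference of -0.06. IL1B, which encodes interleukin 1 beta, was among the most abundant transcripts, above 99.6% of tested genes in FPKM, with 1236 ± 91.1 CPM in TGF-β1 cells and 1077 ± 28.9 CPM in control cells (log2 difference 0.20 ± 0.11, SE; edgeR adjusted p = 0.434). CEBPB, a C/EBP factor of the acute-phase response, had 340.3 ± 51.9 CPM in TGF-β1 cells and 364 ± 41.7 CPM in control cells (edgeR adjusted p = 0.779). IL6ST, the shared signal chain of the interleukin 6 receptors, was chosen after its values were seen, as the lowest adjusted p of these lists (0.142). It had 408, 235 and 170.2 CPM in TGF-β1 replicates 1 to 3, against 130.4, 116 and 164 CPM in control replicates 1 to 3. TGF-β1 replicate 1 stood far above the others, as the GC-poor genes did. The log2 difference was 0.99, against 0.46 with the GC trend removed (edgeR adjusted p = 0.051) and 0.57 without TGF-β1 replicate 1 (edgeR adjusted p = 0.0105). IL6ST was also called by DESeq2, and by edgeR with a replicate block, with no filter and in some fits with another library left out.

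The genes whose profile over the 6 libraries lay nearest to that of C3, by Euclidean distance of log2 CPM centred on each gene's mean among 10642 genes, were PAMR1 (0.172), PLAT (0.217) and ADORA2B (0.247), against a median distance of 1.25. PLAT, which encodes tissue plasminogen activator, had 300.0, 274 and 377 CPM in TGF-β1 replicates 1 to 3, against 555, 607 and 589 CPM in control replicates 1 to 3. As for C3, TGF-β1 replicate 3 was the highest of its group and no library overlapped. Nearest to PTX3 were SERPINB2 (0.172), MMP1 (0.176) and LINC01444 (0.192), against a median of 1.04. MMP1, the interstitial collagenase, had 729.8, 625 and 766 CPM in TGF-β1 replicates 1 to 3, against 1379, 1210.4 and 1267 CPM in control replicates 1 to 3. PTX3 stood at place 42 in the order of likeness to C3, at a distance of 0.455, and all these genes share the contrast that defines the groups.

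The sums of markers of other liver cell types, on total counts as for the stellate markers, came mostly from a few genes. Of 12 hepatocyte markers 5 had a row, with a sum of 57.3 to 72.5 CPM in TGF-β1 libraries and 50.3 to 54.1 CPM in control libraries (two-sided exact permutation p = 0.1), nearly all from CPS1 and SERPINA1, while APOA1, APOB and CYP3A4 were at or near 0. Of 10 leukocyte markers 8 had a row, with a sum of 26.4 to 29.6 CPM in TGF-β1 libraries and 29.7 to 37.5 CPM in control libraries (two-sided exact permutation p = 0.1), and CD163, LYZ and MARCO had at most 5 counts in any library. Their members did not share a direction: CD14, a pattern receptor of monocytes, had 10.2 ± 0.724 CPM in TGF-β1 cells and 15.8 ± 2.64 CPM in control cells (edgeR adjusted p = 0.161), whereas CSF1R, the receptor of a macrophage growth factor, had 6.44 ± 0.792 CPM in TGF-β1 cells and 4.77 ± 0.883 CPM in control cells (edgeR adjusted p = 0.362). PTPRC, the common leukocyte surface phosphatase, had 16, 16 and 6 counts in TGF-β1 replicates 1 to 3, against 3, 9 and 7 counts in control replicates 1 to 3. Endothelial markers summed to 276 to 318 CPM in TGF-β1 libraries and 319 to 361 CPM in control libraries (two-sided exact permutation p = 0.1), nearly all from TIE1, and epithelial markers to 498 to 672 CPM in TGF-β1 libraries and 630 to 737 CPM in control libraries (two-sided exact permutation p = 0.5). The epithelial sum came mostly from KRT8, KRT18 and SOX9, while EPCAM and KRT19 had at most 2 counts in any library. The epithelial difference of -74.0 CPM was -22.9 CPM without TGF-β1 replicate 1 and -42.5 CPM without control replicate 2, and the endothelial difference of -38.3 CPM was -24.8 CPM without control replicate 2. The leukocyte and endothelial sums, though not all of their genes, lay lower in every TGF-β1 library on total counts, by narrow margins. On the TMM-scaled sizes used for C3, C1R and PTX3, both sums overlapped between the groups. There TIE1 had 317 CPM in TGF-β1 replicate 3, against 312 and 311 CPM in control replicates 1 and 3. The part of these cell types in the differences of C3, C1R and PTX3 was not tested.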

How the data were processed

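RNA of 6 LX-2 samples, 3 given TGF-β1 and 3 controls, was extracted with Trizol and made into libraries with a NEBNext Ultra kit, per the labels' protocols; strand is not marked by that kit. HISAT2, HTSeq 0.13.5 and GRCh38 are named, with no role or order, per the submitters' processing notes. Per the file headers, the deposited table holds whole-number read counts and FPKM values of the authors for 27830 genes; the FPKM follow from the counts with 1 length per gene (relative tolerance 1e-06, 17153 genes with counts in all libraries). Identifiers were matched to GENCODE 29, which covered 26980 genes.

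Counts were fitted with edgeR 4.0.16 in R 4.3.3 (robust quasi-likelihood F test, TMM, filterByExpr, 14463 genes), with Benjamini-Hochberg adjustment, after the code was tested on simulated data. Summed markers were compared by a two-sided exact permutation test over samples. The GC trend was a loess curve per library, span 0.5, used as an offset. Members and gene lists were chosen with earlier results of these data known. Most genes outside the 9 were named by rule: called genes up to 4 per list, the 2 with the highest mean FPKM per list, and the 3 nearest to C3 and to PTX3 (mean of at least 5 CPM). IL6ST, VTN, ITGB2, C2, C4A and C4B were named after their values were seen; FN1, ACTA2 and markers served as checks. Alternatives were other scaling factors, no filter, a filter of 1 CPM in 3 samples, a replicate block, DESeq2 1.42.0, limma 3.58.1 on voom values and on log2(FPKM + 1) and log2(FPKM + 0.1), the GC trend removed, and each sample left out. Leaving out samples with the GC trend removed was chosen after seeing the data. Promoter sequences are those of RefSeq on GRCh38.p14.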

Additional observations from a re-analysis of the deposited data

How the results depend on the processing

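The 8 fitted log2 differences kept their direction under 24 alternatives each, except that of C1S, which was not called and reached 0.03 with the GC trend removed and 1 library left out. C3 was called in 20 and PTX3 in 21 of these 24. The 24 include the 6 fits with the GC trend removed and 1 library left out, which were chosen after seeing the data. Both genes were called in all 6 of those. With 1 library left out and the trend kept, C3 was called in 2 of 6 fits and PTX3 in 3 of 6. Removing the GC trend moved CD46 to 0.11 (0.11 with a replicate block as well), CD55 to -0.53 (-0.53) and CD59 to -0.12 (-0.12); with 1 library left out, with and without that trend, CD46 ran from 0.0308 to 0.736, CD55 from -0.61 to -0.21 and CD59 from -0.187 to -0.017. Called genes numbered 53 (27 higher, 26 lower) in the reported fit, 111 (57, 54) with upper quartile factors, 1240 (1071, 169) with no filter, 590 (457, 133) with DESeq2, 474 (239, 235) with the GC trend removed and 474 (238, 236) with the replicate block in addition. With 1 library left out they ran from 4 to 1671 (4 to 1374 higher, 0 to 297 lower), the lowest without TGF-β1 replicate 2 and the highest without TGF-β1 replicate 3; once the GC trend was removed, from 96 to 1530 (49 to 652 higher, 47 to 878 lower). The cause of these moves was not tested. The replicate block gave 527 calls (429 higher, 98 lower). Same-numbered samples had correlations of 0.164, 0.0928 and -0.34 of their deviations from group means, so the numbers are not taken to pair them. Of the other complement, pentraxin and acute-phase genes 0 were called in the reported fit, 4 with no filter, 1 with the replicate block, 1 with DESeq2 and 0 to 4 with 1 library left out. The summed markers kept their direction under 7 alternatives each, but the epithelial difference ran from -109.7 to -22.9 CPM and the endothelial one from -49.8 to -24.8 CPM. With 3 samples a group, totals near the counts given above and medium not stated for controls, small differences such as those of C1S, SERPING1 and CFB could not be resolved.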
